A study of Mus musculus with 6 samples.

Results

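Homer1 is the host gene of 4 of the 11171 circular RNAs (circRNAs) that were listed for the cortex of epileptic and Control mice. They were found as all entries whose host gene is Homer1 (ENSMUSG00000007617), and no entry with several host genes had Homer1 among them. The 3 TLE mice had received scopolamine methyl bromide and then pilocarpine to induce Status Epilepticus, which was ended with diazepam, and their cortex was taken 24 h after Status Epilepticus. The 3 Control mice received saline in place of all of these agents, so an effect of the seizures and an effect of the drugs cannot be told apart. All mice were 6-week-old C57BL/6 males (C57BL/6J in the study's methods), each group stands for 1 time point of an acute chemical model, and whole cortex was used, in which fewer cells of a type and less RNA per cell cannot be told apart.

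Homer1 encodes a scaffold protein of the postsynaptic density of excitatory synapses. Its long forms carry an EVH1 domain, which binds proline-rich ligands such as group I metabotropic glutamate receptors and Shank proteins, and a coiled coil through which they assemble into multimers. Neuronal activity induces a short form, Homer1a, whose transcript ends early within the gene, and which lacks the coiled coil and opposes the long forms at the synapse. In a circRNA a splice donor is ligated back to an acceptor that precedes it in the gene, and Homer1 is known in brain for a circRNA of exons 2 to 5 that responds to activity.

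Homer1 lies on the plus strand of chromosome 13 (chr13:93299635-93405129, mouse build GRCm38). In its annotated 10-exon transcript, mmu_circ_0002165 (chr13:93341756-93356079) runs from exon 2 to exon 5. These exons have 157, 132, 93 and 140 nucleotides and together 522 nucleotides, all of them coding and divisible by 3 without remainder. mmu_circ_0002164 (chr13:93341756-93349297) has the same start and ends with exon 4, which gives 382 nucleotides. mmu_circ_0002167 (chr13:93386345-93393108) joins exon 9 to exon 6 and holds 385 nucleotides of the part of the gene that follows exon 5. The inner exons are taken from the annotation, as only the 2 ends of each circle were read.

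The exons of the circle of exons 2 to 5 are shown because this circle carried most Homer1 reads. They are taken from the GENCODE transcript sequence, 5′ to 3′, with the 12 bases in capitals that meet at its back-spliced junction. In exon 4 the capitals mark the end that the shorter circle of exons 2 to 4 joins to the same start of exon 2.
Exon 2: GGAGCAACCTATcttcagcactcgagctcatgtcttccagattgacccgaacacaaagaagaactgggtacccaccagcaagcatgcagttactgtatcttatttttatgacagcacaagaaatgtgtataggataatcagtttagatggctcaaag
Exon 3: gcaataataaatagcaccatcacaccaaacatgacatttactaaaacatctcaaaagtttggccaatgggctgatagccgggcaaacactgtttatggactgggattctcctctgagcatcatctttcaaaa
Exon 4: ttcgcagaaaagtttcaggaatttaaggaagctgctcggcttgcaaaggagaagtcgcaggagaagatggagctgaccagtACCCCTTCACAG
Exon 5: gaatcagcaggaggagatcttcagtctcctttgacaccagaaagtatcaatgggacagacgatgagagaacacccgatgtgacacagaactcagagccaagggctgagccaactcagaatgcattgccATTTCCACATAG

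The 3 junctions that lie on exon boundaries are shown next to each other, with the upstream exon's start in capitals, because the first pair differs only in the exon that is joined to exon 2.
Exon 5 to exon 2: gccatttccacatagGGAGCAACCTATCTT
Exon 4 to exon 2: agtaccccttcacagGGAGCAACCTATCTT
Exon 9 to exon 6: actcagaaactacagTGCTGGGGATCGAAC
The 20 bases on the exon 5, exon 4, exon 2 and exon 9 side of these junctions occurred in no other gene among the 55450 genes of the transcript set. The first 20 bases of exon 6, an exon of 36 nucleotides that 3 of the 12 annotated Homer1 transcripts use, also occurred in 2 other genes, on either strand. The assignment of reads at that end is therefore less certain.

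The introns around the circle of exons 2 to 5 are the longest of the transcript. Intron 1 has 36453 bases and intron 5 has 30265, whereas the introns between exons 2 and 5 have between 2504 and 6642 bases. Over 9200 listed circRNAs with both ends on exon boundaries of 1 transcript and an intron on each side, the upstream intron had a median of 10216 bases and the downstream intron a median of 8535. Intron 1 was longer than the upstream intron of 83.3% of them, and intron 5 longer than the downstream intron of 83.8%. The circle of exons 2 to 4 shares the long upstream intron and is followed by 6642 bases, shorter than the median.

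The last entry, mmu_circ_0002166 (chr13:93341756-93356185), starts at exon 2 and ends 106 bases past the end of exon 5. In an annotated short transcript, Homer1-204, in which exon 5 runs on past its splice site, this position lies 72 bases past the stop codon. The next 2 bases are GT, as at a splice donor. It was listed at 26.3 SRPBM (3 junction reads) in TLE replicate 2 and at 0 in the other 5 libraries, so it was at or under a floor of 3 reads everywhere and is not compared between groups.

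**Figure D1:**
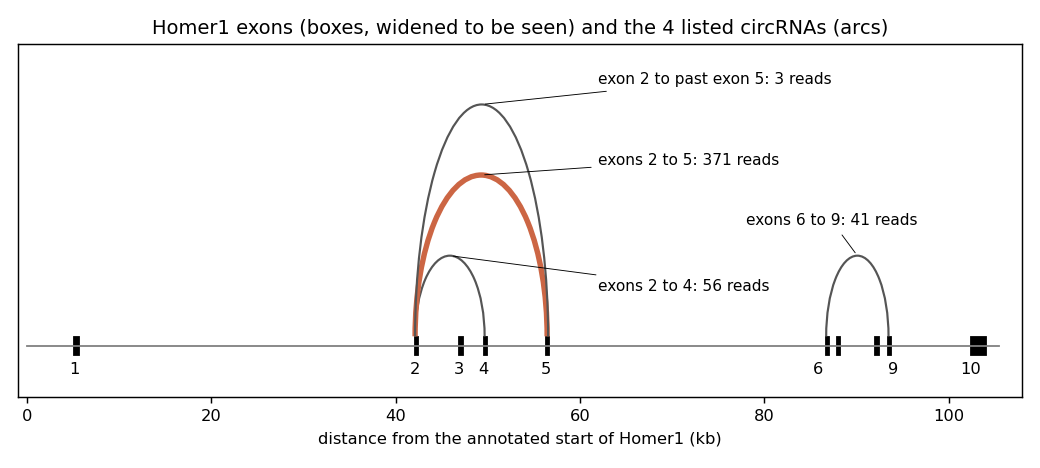
Map of Homer1, with the distance from its annotated start in kb on the x axis, exons as boxes and the 4 listed circRNAs as arcs between their ends. The arc heights carry no value; 3 of the 4 circles start at exon 2, and the circle of exons 2 to 5 holds 371 of the 471 Homer1 junction reads.

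Expression was given by the authors in SRPBM, back-spliced junction reads scaled to the mapped reads of the library. Within each library every value was a whole multiple of 1 step, which was taken as 1 junction read and lay between 8.55 and 10.3 SRPBM. The libraries held between 32504 (TLE replicate 1) and 56516 (TLE replicate 3) junction reads. Homer1 accounted for 471 reads over all libraries, of which 430 belonged to the 3 circles starting at exon 2 and 371 to the circle of exons 2 to 5. With 4 circRNAs, Homer1 had more than the median host gene, which had 2, and 625 of the 3469 single host genes had more than Homer1.

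In the cortex of TLE mice the circle of exons 2 to 5 was 1.79-fold higher on average than in Control, without passing adjustment over all circRNAs. Control replicates 1, 2 and 3 gave 427, 316 and 465 SRPBM, which correspond to 50, 34 and 54 junction reads. TLE replicates 1, 2 and 3 gave 899, 526 and 744 SRPBM, or 87, 60 and 86 reads. The groups did not overlap, but the exact Poisson 95% intervals of the nearest libraries did, with 349 to 607 SRPBM in Control replicate 3 and 401 to 677 SRPBM in TLE replicate 2. The mean was 403 ± 77.5 SRPBM in Control and 723 ± 187 SRPBM in TLE (SD, n = 3 each). Counting error alone would give an SD of 59.8 SRPBM in Control and 81.3 SRPBM in TLE. A spread above counting error was general in these libraries, with a chi-square per degree of freedom of 3.09 to 4.03 between TLE libraries and 1.94 to 2.26 between Control libraries over 400 circRNAs. For the Homer1 circle alone, the chi-square was 10.4 in TLE and 3.28 in Control, each on 2 degrees of freedom. Per degree of freedom, it lay above the general range in TLE and below it in Control. Of the TLE mice, replicate 1 had the highest and replicate 2 the lowest value of the Homer1 circle.

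TLE and Control were compared with limma on log2(SRPBM + 17.1), over the 4271 circRNAs above 0 in at least 3 libraries, where 17.1 is the smallest value above 0. The log2 fold change of the circle of exons 2 to 5 was 0.80 (standard error 0.26, 95% confidence interval 0.26 to 1.34). Its unadjusted p from limma was 0.00614, and its Benjamini-Hochberg adjusted p was 0.838, so the difference did not hold after adjustment over all circRNAs. The smallest adjusted p of all 4271 circRNAs was the same value, 0.838. A two-sided exact permutation test gave p = 0.1, the smallest possible with 3 libraries a group. With the highest library, TLE replicate 1, left out, the log2 fold change was 0.63 (unadjusted p = 0.0137).

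The study's threshold asks for a log2 fold change of 1.5 or more, up or down, and a p under 0.05, here unadjusted. The paper used it with DESeq2, whereas here it was used with limma, so the calls below are not those of the study. By this threshold, 0 of the 3 Homer1 circRNAs tested were called in limma, and 1 of the 3 had an unadjusted p under 0.05. With eBayes without trend, which sets the variance prior of limma without regard to the level, that circle had an unadjusted p of 0.0954 and 0 of the 3 were under 0.05. Of all circRNAs tested, 67 were called (1.57%), 54 of them higher in TLE. That direction depended on single libraries, since 33 of 88 called circRNAs were higher without TLE replicate 3, 40 of 82 without TLE replicate 2 and 104 of 110 without Control replicate 3. An unadjusted p under 0.05 with a higher value in TLE was found for 4.12% of all circRNAs tested and for 7.0% of the 400 with at least 100 junction reads. All TLE values exceeded all Control values in 8.94% of all circRNAs tested and in 11.5% of these 400, so a pattern like that of the Homer1 circle was shared by many others. Within the 400, its log2 fold change was number 15 from the highest and its unadjusted p number 5 from the lowest. Among all 4271, its log2 fold change was number 510 from the highest and its p number 17 from the lowest. All of these ranks are from the limma fit with trend.

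**Figure D2:**
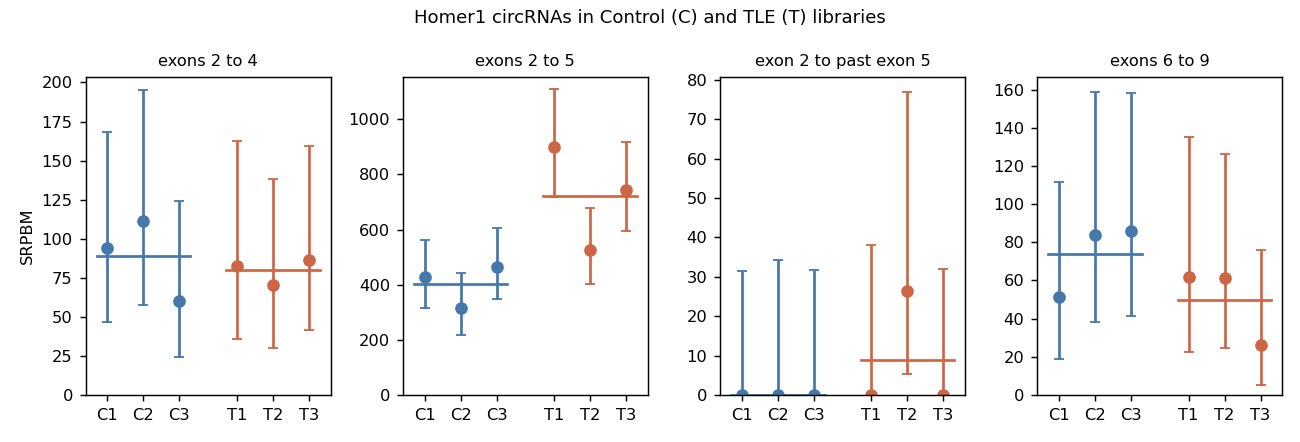
SRPBM of the 4 Homer1 circRNAs in Control libraries (C1 to C3) and TLE libraries (T1 to T3), with a separate y axis from 0 for each. Points are single libraries, bars are exact Poisson 95% intervals, which cover counting error only, and horizontal lines are group means. Only in the circle of exons 2 to 5 do all TLE points, between 526 and 899 SRPBM, lie above all Control points.

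The circles of exons 2 to 4 and of exons 6 to 9 had lower means in TLE than in Control, and neither difference passed a test. For exons 2 to 4, Control replicates 1, 2 and 3 gave 94.0, 112 and 60.3 SRPBM and TLE replicates 82.6, 70.1 and 86.5 SRPBM, with between 7 and 12 junction reads per library. Its libraries overlapped, with means of 88.6 ± 26.1 and 79.8 ± 8.56 SRPBM (SD, n = 3 each). The log2 fold change was -0.10 (95% confidence interval -0.94 to 0.74, unadjusted p = 0.807, adjusted p = 0.963 from limma). As a fold of the Control level, this interval reached from 0.523 to 1.67.

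The circle of exons 6 to 9, which shares no exon with the others, gave 51.3, 83.7 and 86.1 SRPBM in Control replicates 1, 2 and 3, and 61.98, 61.4 and 26.0 SRPBM in the TLE replicates. It rested on 25 junction reads in Control and 16 in TLE, and TLE replicate 3 was at the floor of 3 reads. The groups overlapped, with means of 73.7 ± 19.5 and 49.8 ± 20.6 SRPBM (SD, n = 3 each). Its log2 fold change was -0.47 (95% confidence interval -1.46 to 0.52, unadjusted p = 0.328, adjusted p = 0.922 from limma). As a fold, this interval reached from 0.364 to 1.43, and a difference was not detected. Which differences this depth could show was not tested.

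**Figure D3:**
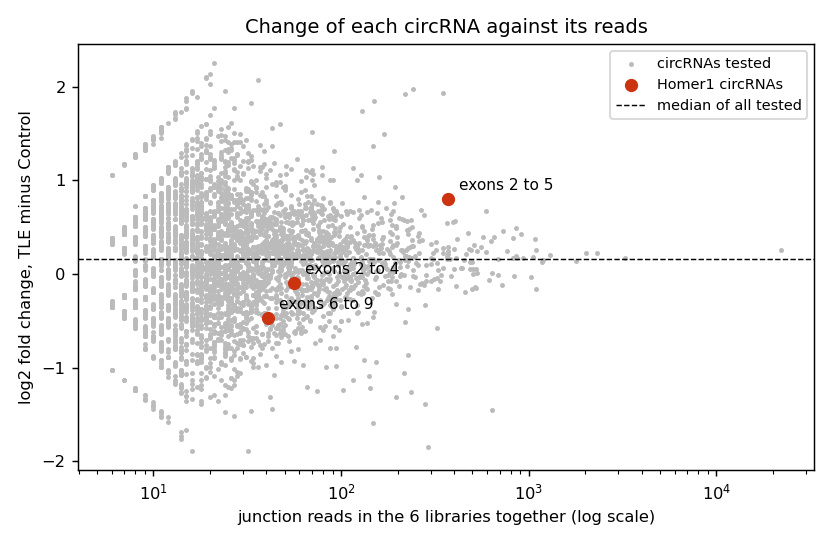
Log2 fold change of the 4271 circRNAs tested (grey points; TLE minus Control, limma on log2(SRPBM + 17.1)) against their junction reads in all libraries on a log scale, with the 3 tested Homer1 circRNAs in red. The spread narrows with reads; the circle of exons 2 to 5 (371 reads) lies at 0.80, above the median of all circRNAs of 0.17 (dashed line), and the other Homer1 circles lie at -0.10 and -0.47.

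Summed over its circles, Homer1 reached 573, 511 and 612 SRPBM in Control replicates 1, 2 and 3, against 1043, 684 and 857 SRPBM in the TLE replicates. All TLE sums were above all Control sums, with means of 565 ± 50.5 and 861 ± 180 SRPBM (SD, n = 3 each; exact permutation test, two-sided, p = 0.1). The share of all host genes with this pattern is not given here, so the pattern does not set Homer1 apart. A log2 fold change above 0 was found for 65.3% of the host genes tested. Among 2157 host genes compared by limma, the log2 fold change was 0.58 (standard error 0.24, 95% confidence interval 0.07 to 1.08, unadjusted p = 0.0271, adjusted p = 0.766). It was not called at the study's threshold, as 1.9% of host genes were, and 5.29% of host genes had an unadjusted p under 0.05 with a higher value in TLE. The unadjusted p of the sum was 0.0776 without TLE replicate 1, 0.0666 without Control replicate 1 and 0.1 without Control replicate 2. Without the circle of exons 2 to 5, the Homer1 circles together were at 162 ± 28.5 SRPBM in Control and 138 ± 23.3 SRPBM in TLE (SD, n = 3 each).

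The libraries also differed in their total SRPBM, which lay between 330961 and 360023 in Control and was 335753, 409021 and 489032 in TLE replicates 1, 2 and 3. Over all circRNAs tested, the log2 fold change had a median of 0.17 as deposited and of 0.01 after each library was rescaled to the same total, where 37 of 62 called circRNAs were higher in TLE. After this rescaling the circle of exons 2 to 5 was at a log2 fold change of 0.58 (unadjusted p = 0.0231) and the Homer1 sum at 0.36 (unadjusted p = 0.112). As a share of the total, the circle of exons 2 to 5 made up 0.122%, 0.0955% and 0.129% in Control replicates 1, 2 and 3, and 0.268%, 0.129% and 0.152% in TLE. On this scale TLE replicate 2 was just below Control replicate 3, so the groups overlapped (two-sided exact permutation test, p = 0.2). All Homer1 circles together made up 0.162 ± 0.00769% of the total SRPBM in Control and 0.218 ± 0.0807% in TLE (SD, n = 3 each; p = 0.2 by the same exact test). The difference of these means was 0.0553 percentage points, and 0.00876 without TLE replicate 1, which was the library with the fewest junction reads.

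The make-up of the Homer1 circles is free of library scaling. That of exons 2 to 5 held 74.6%, 61.8% and 76.1% of the Homer1 SRPBM in Control replicates 1, 2 and 3, of 67, 55 and 71 junction reads. In TLE replicates 1, 2 and 3 it held 86.1%, 76.9% and 86.9%, of 101, 78 and 99 reads. All TLE shares were above all Control shares, with less than 1 percentage point between the nearest libraries, Control replicate 3 and TLE replicate 2. The Wilson 95% confidence intervals of these, 65.0 to 84.5% and 66.4 to 84.9%, overlapped almost fully, and these intervals cover counting error only. The mean share was 70.8 ± 7.84% in Control and 83.3 ± 5.54% in TLE (SD, n = 3 each), a difference of 12.5 percentage points (two-sided exact permutation test, p = 0.1). Of 495 host genes with at least 2 circRNAs and 100 junction reads, 4.85% had a share of their leading circRNA that was higher in every TLE library, and Homer1 was number 38 by the size of its difference. Against the circle of exons 2 to 4, that of exons 2 to 5 was between 2.83 and 7.71 times as high in Control, and between 7.50 and 10.9 times in TLE. These ratios overlapped between groups, in Control replicate 3 and TLE replicate 2 (two-sided exact permutation test, p = 0.2).

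**Figure D4:**
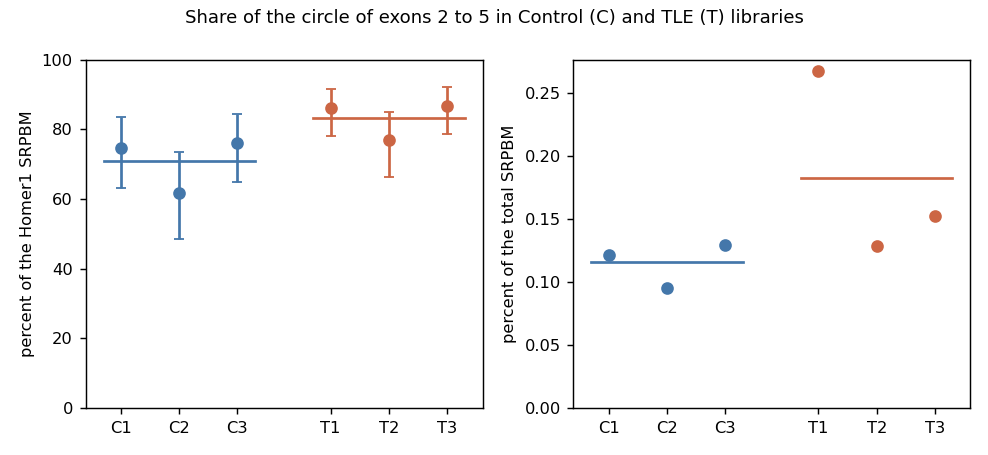
Left, the circle of exons 2 to 5 as percent of the Homer1 SRPBM in each library, with Wilson 95% intervals; right, the same circle as percent of the total SRPBM of the library. C1 to C3 are Control and T1 to T3 TLE libraries, and lines are group means. The Homer1 share is higher in all TLE libraries, narrowly for T2; on the right, T1 at 0.268% stands far above the other TLE libraries and T2 lies level with C3.

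By abundance, the circle of exons 2 to 5 ranked 65 of 11171 by its mean of 563 SRPBM. Within the libraries it ranked 93, 127 and 82 in Control replicates 1, 2 and 3, and 29, 77 and 59 in TLE. It thus stood higher in the order in every TLE library (two-sided exact permutation test, p = 0.1), and TLE replicate 2 again lay next to Control replicate 3. The circles of exons 2 to 4 and of exons 6 to 9 ranked 811 and 1117 by their means, and the entry ending past exon 5 ranked 7287. Homer1 as a host gene ranked 81 of 3469 by its sum.

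The circRNAs next to it in abundance had smaller differences between the groups. Those of Robo1 (576 SRPBM), an axon guidance receptor, and Rprd1b (563 SRPBM), a regulator of RNA polymerase II, lay just above it, and those of Sergef (560 SRPBM) and Plcl2 (558 SRPBM), a phospholipase C-like protein, just below. They were chosen for means close to that of the Homer1 circle, so their levels were not tested against it. In these 4 the values of Control and TLE overlapped, with log2 fold changes between -0.02 and 0.24. All TLE values exceeded all Control values in only 11.5% of the 400 circRNAs with at least 100 reads. Overlap in 4 neighbours thus does not set the Homer1 circle apart. Their SD over the 6 libraries lay between 97.2 and 124 SRPBM, against 217 SRPBM for the Homer1 circle. These SDs were taken over both groups together, so they include the group difference. Within the groups the Homer1 circle had an SD of 77.5 SRPBM in Control and 187 SRPBM in TLE.

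The circRNAs whose values followed the circle of exons 2 to 5 most closely were found among 376 others above 0 in all libraries with at least 100 reads, by Pearson's correlation of log2(SRPBM + 17.1). These correlations rest on the 6 libraries, which share their depth and groups, and are a description. They were highest for circRNAs of N4bp1 (0.98) and Strn3 (0.95), a striatin scaffold protein, for mmu_circ_0004193 without a listed host (0.93), and for circRNAs of Aftph (0.92), a protein of clathrin-mediated trafficking, and Pcf11 (0.90), a factor of mRNA 3′ end cleavage. The median over the 376 was 0.19. The N4bp1 circRNA gave 205, 186 and 250 SRPBM in Control replicates 1, 2 and 3, with 393, 289 and 346 SRPBM in the TLE replicates, and had the same order of TLE libraries as Homer1, with replicate 1 highest and replicate 2 lowest. The Strn3 circRNA, at 325, 288 and 353 SRPBM in Control, reached 661, 438 and 450 SRPBM in TLE. All but the Pcf11 circRNA had TLE values that were all above the Control values, against 11.5% of the 400 circRNAs with at least 100 reads. As the 5 were chosen for following a circle with this pattern, the count is not a separate result.

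Partners of Homer1 at the synapse were read as host genes. Of 18 genes for Homer ligands and their scaffold partners, 12 had circRNAs listed and were tested. In limma, 0 of the 12 were called at the study's threshold, against 1.9% of all host genes, and 0 had an unadjusted p under 0.05, against 6.17% of all host genes in either direction. With shares this low, 0 of 12 does not set the list apart. Their log2 fold changes had a median of 0.05, against 0.20 over all host genes, and 7 of the 12 were above 0, as were 65.3% of all host genes. Dlgap1, a scaffold between PSD-95 and Shank, had the highest sum, at 1520 ± 135 SRPBM in Control and 1453 ± 427 SRPBM in TLE (SD, n = 3 each), and a log2 fold change of -0.10. Ryr2, a calcium release channel, was at 926 ± 126 and 1052 ± 143 SRPBM with a log2 fold change of 0.18. Grm5, the metabotropic glutamate receptor that binds the EVH1 domain, was at 468 ± 66.8 and 528 ± 214 SRPBM with a log2 fold change of 0.11. Dnm3, a dynamin of dendritic spines, was at 179 ± 114 and 201 ± 78.3 SRPBM with a log2 fold change of 0.30. The libraries of both groups overlapped in all 4.

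Of 20 genes that neuronal activity induces, such as Fos, Arc and Npas4, only Rheb had a circRNA listed, at 34.6 SRPBM in TLE replicate 3 and at 0 in the other libraries, and none was tested. For Homer2 and Homer3, the other members of the family, 0 entries were found under their names, and their circles were not analysed here. Of 31 marker genes of neurons, astrocytes, oligodendrocytes, microglia and endothelial cells, 4 had circRNAs listed, and the neuronal Syt1, a synaptic vesicle protein, was the only one tested. It was at 185 ± 89.7 SRPBM in Control and 228 ± 74.96 SRPBM in TLE (SD, n = 3 each; log2 fold change 0.32, unadjusted p = 0.406). Circles of the neuronal markers Syt1, Rbfox3 and Grin1 summed to 137 to 307 SRPBM in Control and 145 to 289 SRPBM in TLE. Syt1 made up most of each sum, so the sums say little about the other neuronal markers. For Rbfox3, Control replicate 2 gave 18.6 SRPBM, Control replicate 3 gave 34.5 SRPBM and every other library 0. The Grin1 circle appeared in TLE replicate 3 alone, with 17.3 SRPBM. Circles of the astrocyte marker Slc1a2 summed to 34.6 SRPBM or less. The oligodendrocyte, microglial and endothelial markers had no circle listed, so the cell composition of the libraries was not tested.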

How the data were processed

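The cortex of 3 Control and 3 TLE mice was sequenced after depletion of ribosomal RNA. The paper names CIRI, run after BWA-MEM, as the tool by which the authors found circRNAs. They deposited a normalized signal, SRPBM, the junction reads of a circRNA relative to the mapped reads of its library. The submitters' processing notes name build mm10 and DESeq2. The same table was deposited 6 times and read 1 time. The CIRI version and the minimum number of reads are not given in the sources used here.

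The smallest value above 0 of a library was taken as 2 junction reads, and all values were whole numbers of reads within 0.1 reads. The libraries held 32504 to 56516 reads. Intervals cover counting error only. No count test was run, since the deposited values are normalized and the reads were inferred from them.

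The groups were compared by limma 3.58.1 under R 4.3.3, with lmFit and a trended, two-sided eBayes, on log2(SRPBM + 17.1), over circRNAs, or host gene sums of circRNAs with 1 host, above 0 in at least 3 libraries, with Benjamini-Hochberg adjustment over all of them and without covariates. Fold changes on this scale understate those of low circRNAs. For single values, exact permutation tests (two-sided) of scipy 1.17.1 were used. Each library was taken as 1 mouse, as the paper describes the groups. The fit was also run on simulated reads that held counting error only and changes larger than that of the Homer1 circle. This run therefore does not tell how the fit performs at the spread and differences seen here. Alternatives covered the pseudocount, filter, rescaling, eBayes without trend, a replicate block, the threshold and leaving out each library.

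GENCODE release M21 of GRCm38 gave the exons, in the transcript with the most exons. Named were all Homer1 circRNAs, the 2 neighbours on each side in abundance, the 5 with the most similar values, list members past the threshold and the 4 highest of each list. The members and lists were chosen with earlier results of these data known.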

Additional observations from a re-analysis of the deposited data

How the results depend on the processing

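Under each of the 14 alternatives 0 Homer1 circRNAs were past the threshold, as were 0 of the ligand genes tested under 13, since these were not counted at a log2 fold change of 1. The log2 fold change of the circle of exons 2 to 5 stayed above 0, between 0.58 and 1.01 (0.63 to 1.01 with 1 library left out), with unadjusted p values from 0.00134 to 0.0954 and adjusted p values from 0.378 to 0.979. In limma it missed an unadjusted p of 0.05 with eBayes without trend (0.80, unadjusted p = 0.0954). The Homer1 sum lay between 0.36 and 0.73 (0.43 to 0.73 with 1 library left out; adjusted p from 0.485 to 0.98). In limma the sum missed 0.05 after rescaling (0.36, unadjusted p = 0.112), with eBayes without trend (0.58, unadjusted p = 0.149) and without Control replicate 1, Control replicate 2 or TLE replicate 1. The cause of these losses was not tested. The circle of exons 2 to 4 turned from -0.10 to 0.059 without Control replicate 2, and lay between -0.31 and 0.059 with 1 library left out.

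The number of all circRNAs past the threshold, 67, was 168 with a pseudocount of 1 junction read, 130 with 1 SRPBM, 196 at a log2 fold change of 1, and 82 to 110 with 1 library left out. With 1 library left out, the TLE minus Control difference was 0.00876 to 0.0805 percentage points for the Homer1 share of the total, 7.97 to 15.7 points for the share of the circle of exons 2 to 5 within Homer1 and -56.7 to -32.5 for its rank. After thinning of all libraries to the same number of reads the rank difference was -42.0, and -45.3 over circRNAs above 0 in at least 3 libraries.

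With the replicate number as a block, the circle of exons 2 to 5 had an unadjusted p of 0.00312 and the Homer1 sum 0.021, and no call changed. Deviations of same-numbered libraries correlated at 0.010 to 0.019, slightly above the -0.024 to 0.009 of differently numbered ones. All of these were near 0, so the numbers were not taken to pair the mice. A depth of 16 to 30 reads per group limits the circles of exons 2 to 4 and 6 to 9.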
